A study of Mus musculus with 8 samples.

Results

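This account covers 10 genes of the NRF2 and glutathione defence in NIH3T3 cells treated for 1 day with the compound Mic-628 or with vehicle. NIH3T3 is an immortal line of fibroblasts from mouse embryos. The genes, Nfe2l2, Keap1, Hmox1, Gclc, Gclm, Txnrd1, Srxn1, Slc7a11, G6pdx and Gsr, were chosen by name, with earlier results of these data known. Each had 1 row among the 78298 rows of the deposited tables, and 10 of the 10 passed the filter on low counts. There were 4 wild-type libraries with Mic-628 and 4 wild-type libraries with vehicle, all of poly(A) RNA from cells grown in serum-containing medium. The labels state neither the dose of Mic-628 nor the vehicle. The series is titled for an inducer of Period1 and its action on the clock of mice, and the comparison here asks whether transcripts of the antioxidant defence differed after the same treatment. Since nothing in the labels ties the libraries to separate cultures, the p-values below reflect the spread among these 8 libraries, and that spread may be technical.

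NRF2, encoded by Nfe2l2, is a transcription factor that switches on antioxidant and detoxifying genes. In unstressed cells KEAP1 binds it and, as an adaptor of a CUL3 ubiquitin ligase, directs it to degradation; oxidants and electrophiles modify KEAP1, and NRF2 then accumulates, pairs with a small MAF protein and binds antioxidant response elements. This control acts mainly on the protein, so the Nfe2l2 transcript need not follow NRF2 activity, and transcripts of its target genes are the usual readout of the pathway in RNA data. Glutathione, the main small thiol of the cell, is made by glutamate-cysteine ligase and glutathione synthetase and is kept reduced with NADPH.

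Of the 7 members with a promoter window in RefSeq (build GRCm38.p6, 250 bases before to 50 after the transcription start), 5 held the core letters of the antioxidant response element, TGACNNNGC, on one strand or the other: Nfe2l2, Gclm, Txnrd1, Srxn1 and G6pdx. Counted by window, the letters were in 5 of the 9 windows of the 7 members (55.6%), beside 12.4% of all 32851 such windows. Counted by gene, 3781 of 27025 genes held them. Keap1 and Slc7a11 had windows without them. No window was available here for Gclc, Gsr or Hmox1. The search therefore does not cover Gclc, the only member called changed below. A match of these letters is a description and not a binding site. The windows of 3 of the 5 members with the core are shown as examples, 1 regulator, 1 glutathione gene and 1 thioredoxin gene. None of the 5 transcripts was called changed, so these windows make no contrast with a changed transcript. Capitals mark the core on either strand, and each window is printed in the direction of transcription. They lie at chr2:75704614-75704913 (minus strand), chr3:122245307-122245606 (plus strand) and chr10:82858956-82859255 (plus strand, 1 of 3 windows of Txnrd1).
Nfe2l2: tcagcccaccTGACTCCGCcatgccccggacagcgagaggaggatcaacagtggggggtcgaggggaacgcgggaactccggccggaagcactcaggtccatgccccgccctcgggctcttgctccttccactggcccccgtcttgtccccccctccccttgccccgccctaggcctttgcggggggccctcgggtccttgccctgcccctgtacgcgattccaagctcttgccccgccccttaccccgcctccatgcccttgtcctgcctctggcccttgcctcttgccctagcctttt
Gclm: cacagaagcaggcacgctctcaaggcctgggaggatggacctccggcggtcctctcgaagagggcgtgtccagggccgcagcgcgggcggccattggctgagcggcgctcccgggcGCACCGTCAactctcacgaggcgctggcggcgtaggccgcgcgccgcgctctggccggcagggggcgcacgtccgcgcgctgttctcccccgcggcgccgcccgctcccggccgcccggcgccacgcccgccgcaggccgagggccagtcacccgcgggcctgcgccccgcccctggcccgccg
Txnrd1: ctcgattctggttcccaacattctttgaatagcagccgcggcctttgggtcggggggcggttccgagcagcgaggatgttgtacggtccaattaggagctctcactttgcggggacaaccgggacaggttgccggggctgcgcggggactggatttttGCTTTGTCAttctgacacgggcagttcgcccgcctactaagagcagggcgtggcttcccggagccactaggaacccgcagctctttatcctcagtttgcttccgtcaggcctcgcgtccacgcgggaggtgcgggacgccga
The core began 240 bases before the start site in Nfe2l2, 134 before it in Gclm and 92 before it in Txnrd1. The AP-1 letters TGAGTCA, searched on both strands, occurred at 2 places in the Srxn1 window, apart from its core, and in no other member's window; 5.2% of all windows held them. The E-box letters CACGTG, which read the same on both strands and are bound by CLOCK and BMAL1, were in 0 of the 9 windows of the 7 members and in 7.15% of all windows.

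After 1 day of Mic-628, 1 of the 10 transcripts was called changed. Gclc, the catalytic subunit of glutamate-cysteine ligase, rose by 13.4%, and the other 9 were not called at an adjusted p under 0.05 (edgeR's quasi-likelihood test, Benjamini-Hochberg adjustment over 17128 tested rows). In the same fit 4.37% of all tested rows were called, with 2.13% higher and 2.25% lower, beside 1 of 10 members. The median log2 fold change was -0.02 over the 10 members and -0.0040 over all tested rows, and the median size of the change was 0.024 for the members and 0.072 for all rows. All rows include weakly expressed genes with noisier estimates, so the 2 sizes were not compared at like expression. The standard error was 0.033 (Nfe2l2) to 0.044 (Keap1) for the members, and 0.27 for the weakly expressed Txnip. Two-sided 95% intervals of the 8 members other than Gclc and Keap1 lay between -8.7% (Hmox1) and 6.45% (Slc7a11). Differences larger than these bounds are therefore outside the intervals of those 8, and smaller ones were not resolved. The 10 members had 679 (Keap1) to 9962.5 (Txnrd1) counts per gene and library.

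**Figure D1:**
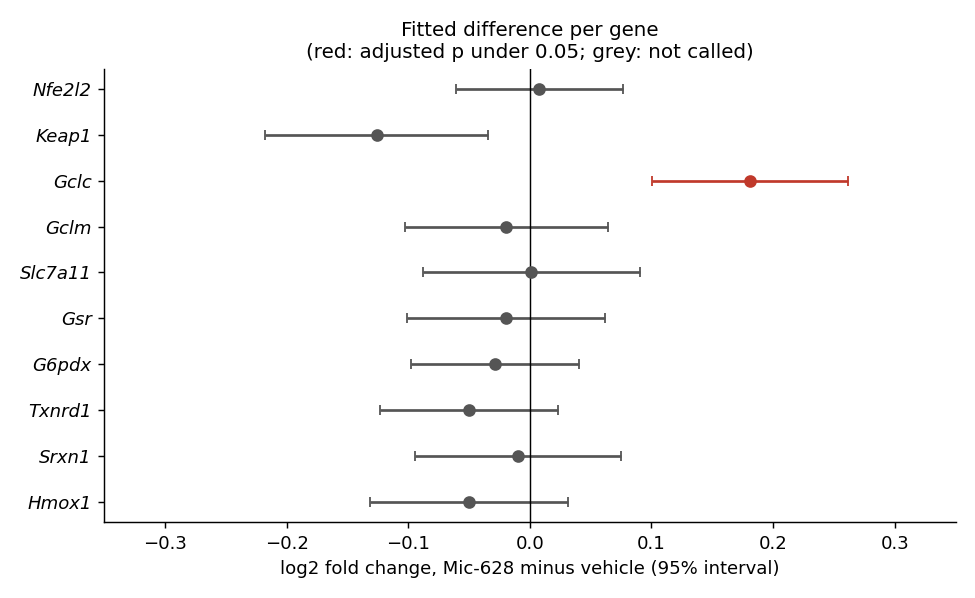
Fitted log2 fold change, Mic-628 minus vehicle (horizontal axis), for each of the 10 genes, with points for the estimate and bars for the 95% interval from edgeR. Gclc (red, 0.18) was called, while Keap1 (-0.13) was not after adjustment and the remaining 8 intervals include 0.

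Neither regulator transcript passed the test. Nfe2l2 (ENSMUST00000102672.5; mm39 chr2:75505857-75534985, minus strand) had 141, 132, 139 and 139.5 CPM (counts per mega of counts, scaled with TMM factors) in Mic-628 replicates 1 to 4, against 134, 134, 142 and 139 CPM in vehicle replicates 1 to 4. The ranges of the 2 groups lay on top of each other. Its mean was 138 ± 3.83 CPM with Mic-628 and 137 ± 3.96 CPM with vehicle (SD, n = 4 each). The fitted difference on the log2 scale was 0.0076, with an SE of 0.033 and an edgeR adjusted p of 0.95. Keap1, which encodes the repressor (ENSMUST00000194542.6; mm39 chr9:21141026-21150628, minus strand), had 37.5, 35.6, 39.1 and 38.6 CPM with Mic-628, against 39.6, 42.1, 39.8 and 43.1 CPM with vehicle. All 4 Mic-628 libraries lay below the 4 vehicle libraries, which by itself fixes the direction in 4 of 4 pairs with the same batch number. The gap between the highest Mic-628 and the lowest vehicle library was small. The means were 37.7 ± 1.54 CPM with Mic-628 and 41.1 ± 1.72 CPM with vehicle (SD, n = 4 each). The log2 fold change was -0.13 (95% interval -0.22 to -0.03), with an unadjusted p of 0.0091 and an edgeR adjusted p of 0.12, so the difference did not pass. Groups that do not overlap were found for 2 of the 10 members, Keap1 and Gclc, and for 10.7% of all tested rows. An unadjusted p under 0.05 was found for the same number of members, 2, and for 17% of all rows.

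The Keap1 row overlaps 2 rows on the opposite strand, Gm16754 and ENSMUSG00000127109, whose mean counts were 18.8% and 14.8% of that of Keap1. Their log2 fold changes were -0.13 (edgeR adjusted p = 0.46) for Gm16754 and -0.17 (edgeR adjusted p = 0.46) for ENSMUSG00000127109. Whether the counting used strand is not given in the sources used here, so reads shared between these rows and Keap1 cannot be told apart. The log2 ratio of Nfe2l2 to Keap1 counts, in which library size cancels, was 1.91, 1.89, 1.83 and 1.85 with Mic-628, against 1.76, 1.67, 1.84 and 1.69 with vehicle. Mic-628 replicate 3 fell just under vehicle replicate 3, so the groups met. The difference was 0.13 (exact permutation test, two-sided, p = 0.0571; also 0.0571 after adjustment over the 2 ratios tested), which did not pass.

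Glutathione synthesis held the one change. SLC7A11, the cystine and glutamate exchanger, brings in cystine, the source of the cysteine that limits synthesis; glutamate-cysteine ligase then joins cysteine to glutamate, with GCLC carrying the catalysis and GCLM, the modifier subunit, raising its efficiency. Gclc (ENSMUST00000034905.9; mm39 chr9:77661817-77701767, plus strand) had 80.0, 84.9, 81.6 and 84.7 CPM with Mic-628, against 69.8, 71.1, 72.8 and 78.6 CPM with vehicle. Every Mic-628 library was above every vehicle library. The means were 82.8 ± 2.40 CPM with Mic-628 and 73.1 ± 3.90 CPM with vehicle (SD, n = 4 each). On the log2 scale Gclc was higher by 0.18, with an SE of 0.039 and an edgeR adjusted p of 0.0062. That is a rise of 13.4% with a 95% interval of 7.24% to 19.9%. With the groups apart, 4 of 4 batch pairs had to show a rise, so the pairs add no support. Gclc ranked 283rd by p among the tested rows. Gclc stayed called when any 1 library was left out (edgeR adjusted p 0.00062 to 0.038) but not by DESeq2 with the batch number as a block (adjusted p = 0.0706), by limma-trend on log2(FPKM + 1) (adjusted p = 0.0716), or in edgeR without both libraries of batch 2 (adjusted p = 0.109) or of batch 3 (adjusted p = 0.0594). Over 22 alternatives its adjusted p ran from 0.00051 to 0.15, it passed in 16, and the log2 fold change stayed between 0.16 and 0.22.

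Gclm (ENSMUST00000029769.14; mm39 chr3:122039206-122064381, plus strand) had 86.8, 90.1, 88.1 and 88.3 CPM with Mic-628, against 90.9, 81.4, 90.2 and 95.7 CPM with vehicle. The Mic-628 libraries sat inside the vehicle range. The fitted log2 fold change of Gclm was -0.02, with an SE of 0.040 and an edgeR adjusted p of 0.87. The subunits were also compared directly, on the same counts, so their ratio is not separate support for the Gclc difference. The log2 ratio of Gclc to Gclm counts was -0.12, -0.086, -0.11 and -0.060 with Mic-628, against -0.38, -0.20, -0.31 and -0.28 with vehicle. The groups did not overlap, and the ratio was higher by 0.20 on the log2 scale, or 1.15-fold, with Mic-628. The exact permutation p was 0.0286 (two-sided), the smallest that 4 libraries against 4 can give, and 0.0571 after Benjamini-Hochberg adjustment over the 2 ratios. At this group size the adjusted p of a ratio cannot fall under 0.05 unless the other ratio reaches the same smallest p, so the adjusted value does not decide whether the subunits differed in response. Slc7a11 (ENSMUST00000029297.6; mm39 chr3:50319387-50398060, minus strand) had 72.0, 72.7, 73.5 and 77.6 CPM with Mic-628, against 67.8, 71.4, 77.9 and 78.5 CPM with vehicle. The Mic-628 values again lay within the vehicle values, and the means were 73.9 ± 2.51 CPM with Mic-628 and 73.9 ± 5.18 CPM with vehicle (SD, n = 4 each; log2 fold change 0.00098, SE 0.043, edgeR adjusted p = 1.00). The sign of the Gclm, Slc7a11, Nfe2l2, Srxn1 and Gsr differences turned under some alternatives, and that of the other 5 members did not.

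**Figure D2:**
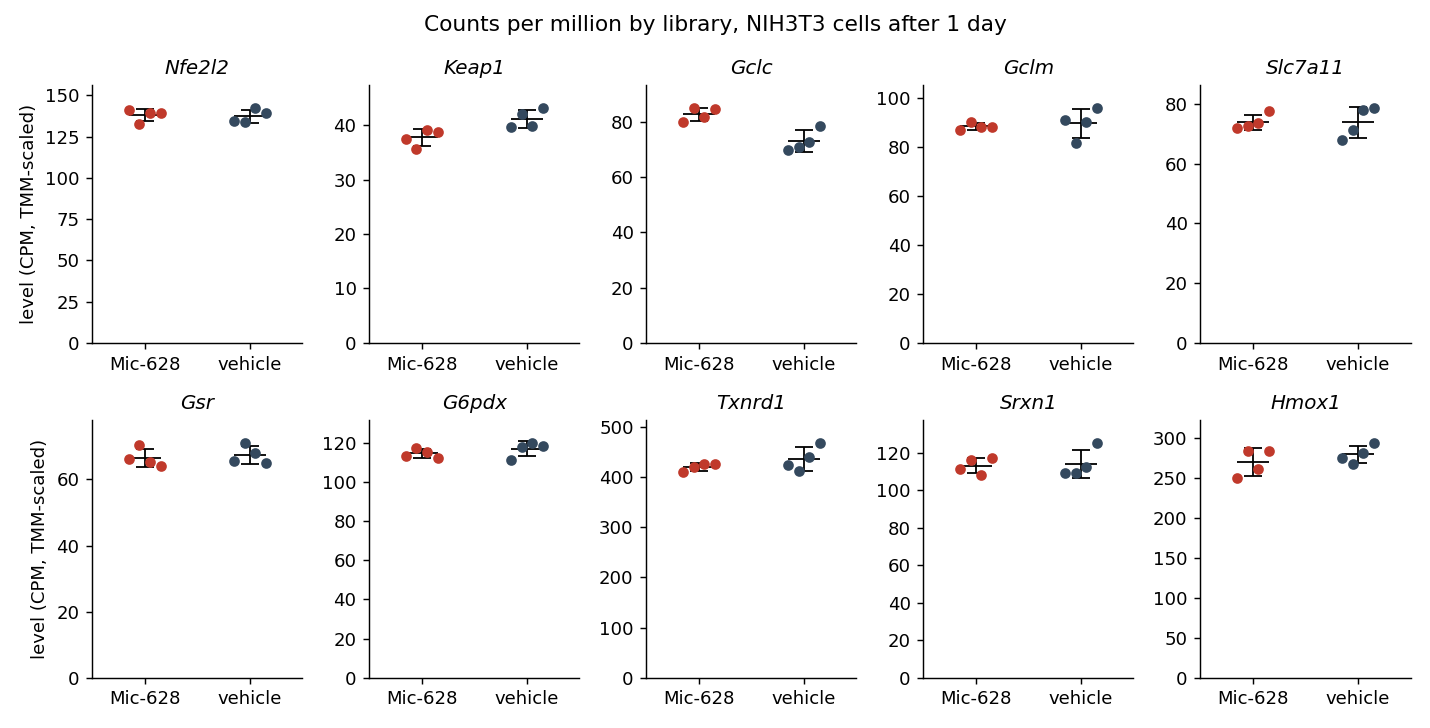
Level of each of the 10 genes in CPM (vertical axes, from 0) in the 4 Mic-628 libraries (red) and the 4 vehicle libraries (dark), in replicate order from left to right; black bars give the mean ± SD. Only for Keap1 and Gclc are the 2 groups apart, with Mic-628 lower for Keap1 and higher for Gclc.

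Genes that keep glutathione and thioredoxin reduced were not called. Gsr, which encodes glutathione reductase (ENSMUST00000033992.9; mm39 chr8:34143266-34188191, plus strand), had 66.1, 70.3, 65.2 and 64.2 CPM with Mic-628, against 65.7, 71.0, 67.9 and 64.9 CPM with vehicle. G6pdx, which encodes the glucose-6-phosphate dehydrogenase that starts the pentose phosphate pathway and yields NADPH (ENSMUST00000004327.11; mm39 chrX:73453089-73472800, minus strand), had 113, 117, 116 and 112 CPM with Mic-628, against 111, 118, 119.9 and 119 CPM with vehicle. In both genes the groups overlapped, with log2 fold changes of -0.02 for Gsr (SE 0.039; edgeR adjusted p = 0.86) and -0.03 for G6pdx (SE 0.034; edgeR adjusted p = 0.73). Ikbkg, on the opposite strand, overlaps G6pdx with 53.7% of its mean count and had a log2 fold change of -0.03 (edgeR adjusted p = 0.69); reads shared by these rows cannot be told apart.

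Txnrd1, the cytosolic thioredoxin reductase (ENSMUST00000020484.9; mm39 chr10:82695013-82733546, plus strand), had 410.2, 421, 427 and 427 CPM with Mic-628, against 424, 413, 440.3 and 468 CPM with vehicle. Srxn1, the sulfiredoxin that repairs overoxidized peroxiredoxins (ENSMUST00000041500.8; mm39 chr2:151947444-151953296, plus strand), had 111, 116, 108 and 117 CPM with Mic-628, against 109, 109, 112 and 125 CPM with vehicle. Vehicle replicate 4 was the highest library of both genes, and the groups overlapped. The log2 fold changes were -0.05 for Txnrd1 (SE 0.035; edgeR adjusted p = 0.51) and -0.0097 for Srxn1 (SE 0.041; edgeR adjusted p = 0.94). Hmox1, the inducible heme oxygenase that opens heme and is widely used as a marker of oxidative stress (ENSMUST00000005548.8; mm39 chr8:75820249-75827217, plus strand), had 250.2, 284, 261 and 285 CPM with Mic-628, against 276, 268, 281 and 294 CPM with vehicle. Mic-628 replicates 1 and 3 were the lowest of the 8, and the other 2 lay inside the vehicle range. The means were 270.1 ± 17.3 CPM with Mic-628 and 279.8 ± 10.8 CPM with vehicle (SD, n = 4 each; log2 fold change -0.05, SE 0.039, edgeR adjusted p = 0.57).

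The libraries differed in ways that several members shared. Among the Mic-628 libraries, replicate 1 had the lowest CPM for 5 of the 10 members and replicate 2 the highest for 4. Among the vehicle libraries, replicate 4 had the highest CPM for 7 members and replicate 1 the lowest for 5. The coefficient of variation of a member was 1.52% to 6.41% among Mic-628 libraries and 2.88% to 7.01% among vehicle libraries, and it was smaller with Mic-628 for 8 of the 10. This difference in spread was not tested. The same counts were not made over all rows, so they cannot be read as particular to the members.

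Set per exon length, the members spanned a wide range of levels, and their order was the same in both groups. Hmox1 was the most abundant, at 160.2 FPKM with Mic-628 and 166 FPKM with vehicle, followed by Txnrd1 at 118 FPKM with Mic-628 and 122 FPKM with vehicle. Nfe2l2 (51.8 FPKM with Mic-628 and 51.5 FPKM with vehicle) came next, then G6pdx (40.4 FPKM with Mic-628 and 41.2 FPKM with vehicle) and Srxn1 (37.2 FPKM with Mic-628 and 37.5 FPKM with vehicle). Gsr had 23.2 FPKM with Mic-628 and 23.5 FPKM with vehicle, and Gclc 22.6 FPKM with Mic-628 and 19.9 FPKM with vehicle. Gclm had 14.7 FPKM with Mic-628 and 14.9 FPKM with vehicle, Keap1 11.1 FPKM with Mic-628 and 12.1 FPKM with vehicle, and Slc7a11 7.44 FPKM with Mic-628 and 7.43 FPKM with vehicle. The ranges of neighbours in this order did not overlap, except those of Gsr and Gclc with Mic-628, and those of G6pdx and Srxn1 with vehicle. With Mic-628, Gclc reached 21.8 to 23.3 FPKM, beside 22.4 to 24.7 FPKM for Gsr. With vehicle, Gclc had 19.1 to 21.4 FPKM, under the 22.6 to 24.8 FPKM of Gsr. The order did not change when any one library was left out.

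**Figure D3:**
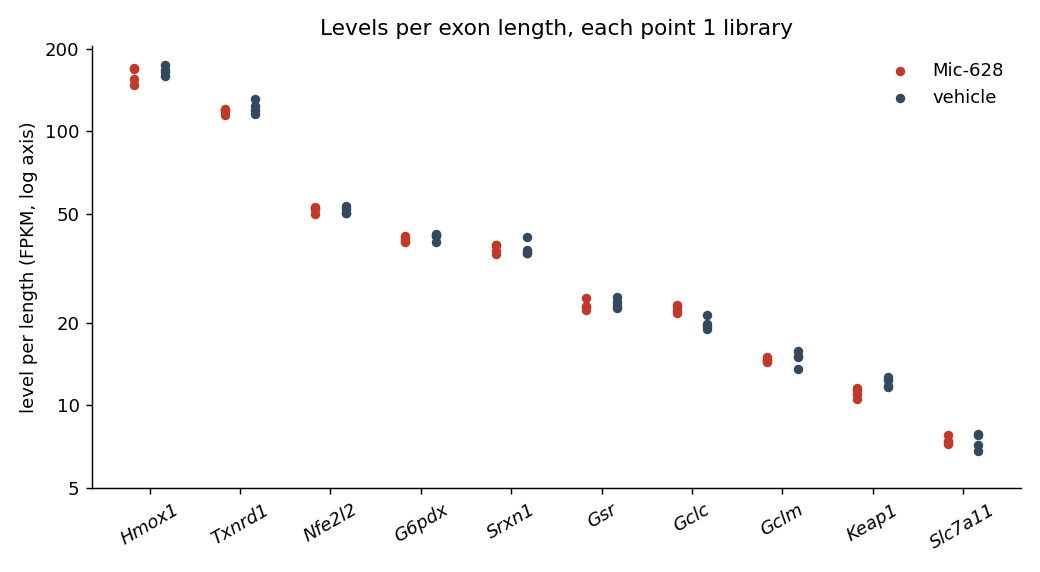
Level per exon length (FPKM, logarithmic vertical axis) of the 10 genes, ordered by their vehicle mean, with each point 1 library (Mic-628 in red, left; vehicle dark, right). The levels run from about 7.4 FPKM for Slc7a11 to over 160 FPKM for Hmox1 in the same order in both groups, and Gclc comes up to the range of Gsr with Mic-628.

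The wider pathway was described by 7 lists of 117 genes around the 10 members. Of these, 116 had a row and 102 were tested; 4 rose, 1 fell and 97 were not called, or 4.9% called, beside 4.37% of all tested rows. Their median log2 fold change was -0.02. Over all rows, DESeq2 without a block called 558 of 13641 tested, with 278 higher and 280 lower. Among 13 tested regulators and partners of NRF2 none was called by edgeR, and 2 had an unadjusted p under 0.05. DESeq2 without a block also called 0 of them. The smallest p in that list belonged to Cul3, the scaffold of the KEAP1 ubiquitin ligase, with 120.6 CPM with Mic-628 and 111 CPM with vehicle (log2 fold change 0.12; edgeR adjusted p = 0.078, and 0.025 to 0.41 over its alternatives).

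None of 17 tested genes of glutathione synthesis, breakdown and peroxidases was called by edgeR (3 with an unadjusted p under 0.05; 0 called by DESeq2 without a block). The smallest p was that of Chac1, which degrades glutathione (log2 fold change 0.10; edgeR adjusted p = 0.23, and 0.017 to 0.65 over its alternatives). None of 14 tested glutathione transferases was called either (6 with an unadjusted p under 0.05). DESeq2 without a block called 1, Gsto1, an omega class transferase chosen once its values were known (0.09 on the log2 scale; DESeq2 adjusted p = 0.033, edgeR adjusted p = 0.11). In this list 10 genes had a negative and 4 a positive log2 fold change, with a median of -0.09. Of all 17128 tested rows, 8834 had a negative log2 fold change, the median was -0.0040, and 17% had an unadjusted p under 0.05. Whether the list differed from all rows was not tested. Gstm4 had the smallest p of the list (-0.52, edgeR adjusted p = 0.083, and 0.037 to 0.73 over its alternatives). Gstm and Gstp genes have near-identical copies, and reads could be split between them. Of 11 tested genes of heme, iron and superoxide handling none was called by edgeR, 2 had an unadjusted p under 0.05, and DESeq2 without a block called 1, Fth1. Fth1, the ferritin heavy chain that stores iron, had 1617 CPM with Mic-628 and 1738 CPM with vehicle (log2 fold change -0.10; edgeR adjusted p = 0.059, and 0.015 to 0.38 over its alternatives).

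Changes passed the test in 3 lists. Of 13 NADPH genes 1 fell, or 7.69%, beside 2.25% of all tested rows called lower (DESeq2 without a block also called 1 lower): H6pd, the hexose-6-phosphate dehydrogenase of the endoplasmic reticulum, had 56.2, 57.7, 58.5 and 58.4 CPM with Mic-628, against 64.3, 67.7, 68.1 and 66.3 CPM with vehicle. The groups were apart (log2 fold change -0.21, SE 0.036; edgeR adjusted p = 0.00069), and H6pd passed in 22 of 22 alternatives. Its relative in the cytosol, G6pdx, was not called, as above. Of 16 thioredoxin and peroxiredoxin genes 1 rose, or 6.25%, beside 2.13% of all tested rows called higher, while DESeq2 without a block called 0 of the 15 to which it gave an adjusted p. The called gene was Txnip, whose product binds and inhibits thioredoxin. It was weakly expressed, with 22.5, 18.5, 24 and 19 counts with Mic-628, against 13.5, 11, 6.5 and 10 counts with vehicle (log2 fold change 1.01; edgeR adjusted p = 0.029). With 1 library left out, Txnip was not called without Mic-628 replicate 1 or 3 (edgeR adjusted p 0.0999 and 0.11) or vehicle replicate 2, 3 or 4 (0.079, 0.12 and 0.058), nor without batch 2, 3 or 4 (0.066, 0.26 and 0.063; 0.015 to 0.26 over its alternatives). Txnip had a value in 17 of the 22 alternatives, neither DESeq2 fit among them, and passed in 8. By limma-trend on log2(FPKM + 1) over all rows its log2 fold change was 0.20 (adjusted p = 0.20).

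Of 18 detoxification genes 3 rose and 0 fell, or 16.7% called, beside 4.37% of all tested rows called and 2.13% called higher. DESeq2 without a block called 2 higher, Nqo1 and Akr1c14, of the 16 to which it gave an adjusted p. Over all rows it called 278 of 13641 higher. Nqo1, a quinone reductase that is a classical target of NRF2 and also of the aryl hydrocarbon receptor, had 27.6, 24.5, 28.2 and 28.5 CPM with Mic-628, against 23.5, 23.8, 22.5 and 22.9 CPM with vehicle. Each Mic-628 library was higher than each vehicle library, replicate 2 by the least (log2 fold change 0.23, SE 0.054; edgeR adjusted p = 0.014). Without Mic-628 replicate 3 or vehicle replicate 3 Nqo1 was not called (edgeR adjusted p 0.065 and 0.053; 0.0026 to 0.31 over its alternatives), nor without batch 3 or 4 (0.16 and 0.078) or by DESeq2 with the block (adjusted p = 0.31). All 3 limma-trend fits missed the threshold for Nqo1 too, with adjusted p of 0.0598 on log2(FPKM + 1), 0.0608 on log2(FPKM + 0.1) and 0.13 on log2(FPKM + 1) over all rows. It passed in 14 of 22 alternatives. Akr1c14, an aldo-keto reductase, had 6.66 CPM with Mic-628 and 4.84 CPM with vehicle (log2 fold change 0.46; edgeR adjusted p = 0.0042). It stayed called when any 1 library was left out, but not without batch 3 (edgeR adjusted p = 0.052) or by DESeq2 with the block (adjusted p = 0.23; 0.00096 to 0.23 over its alternatives). By limma-trend on log2(FPKM + 1) the log2 fold change of Akr1c14 was 0.29 (adjusted p = 0.0491, and 0.15 over all rows), and it passed in 19 of 22 alternatives. Aldh3a1, an aldehyde dehydrogenase gene that the aryl hydrocarbon receptor also controls, had 20, 16, 14.5 and 20 counts with Mic-628, against 4.5, 7, 11 and 8 counts with vehicle (log2 fold change 1.21; edgeR adjusted p = 0.019). It was not called without Mic-628 replicate 1 or 4 (edgeR adjusted p 0.081 and 0.054), nor without vehicle replicate 1 or 2 (0.059 and 0.075) or batch 1, 2 or 4 (0.14, 0.079 and 0.069; 0.0076 to 0.18 over its alternatives). Aldh3a1 had a value in 17 of the 22 alternatives, neither DESeq2 fit among them, and passed in 9. By limma-trend on log2(FPKM + 1) over all rows its log2 fold change was 0.29 (adjusted p = 0.18). Of the 4 called list genes with a promoter window, 0 held the core of the antioxidant response element. Among tested list genes that were not called, 13.3% of 120 windows held it. With 4 windows, a count of 0 cannot be told apart from that share, and the difference was not tested. Sequence outside the promoter windows was not searched, so elements farther from the start site would be missed.

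**Figure D4:**
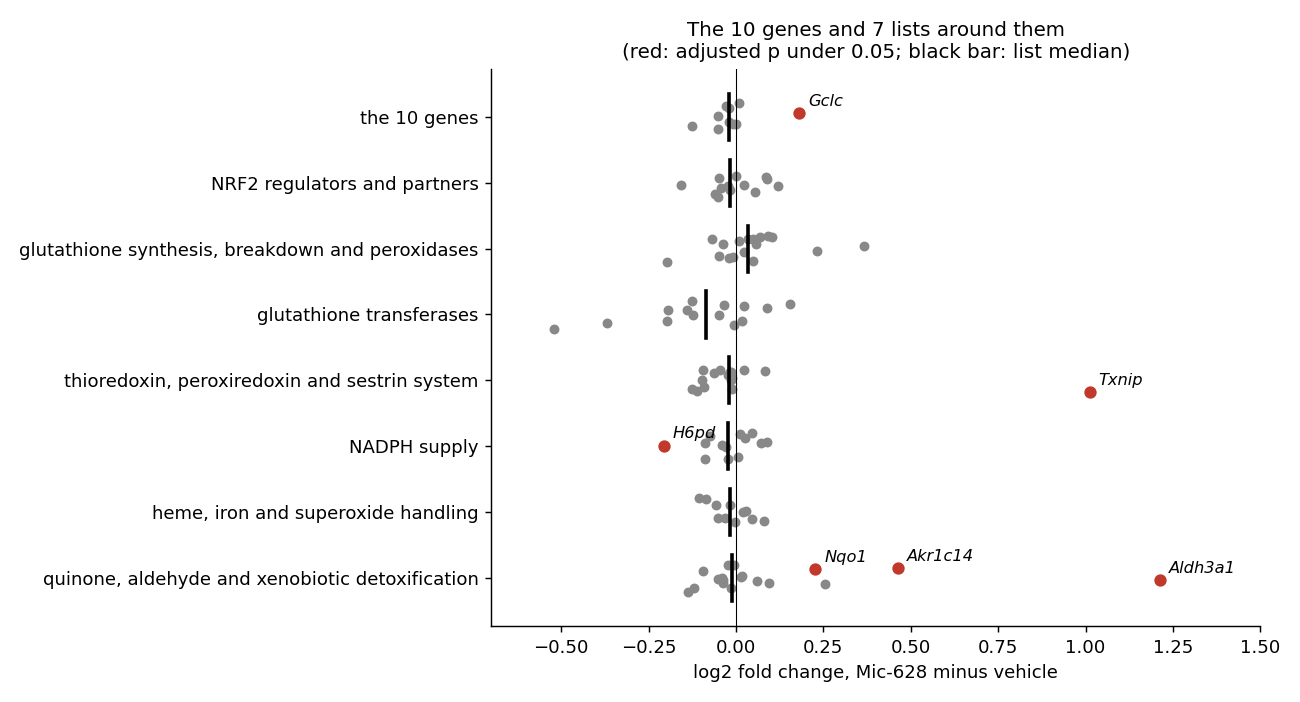
Log2 fold change, Mic-628 minus vehicle (horizontal axis), of the 10 genes (top row) and of the tested genes of 7 lists (other rows), each point 1 gene, red where called; black bars are medians. The medians lie between -0.09 and 0.03, and the called genes are Gclc, Txnip, H6pd, Nqo1, Akr1c14 and Aldh3a1.

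Depth was 18.1 M to 23.2 M counts (M, mega) on listed rows per library. Both ends were Mic-628 libraries, replicate 1 the lowest and replicate 2 the highest. The vehicle libraries had 20.3 M to 21.7 M. The cells carried fibroblast transcripts, with 9 of 10 fixed markers above 1 FPKM, and the epithelial, endothelial and muscle markers all averaged under 1 FPKM. The summed fibroblast markers were 4432 to 4548 FPKM with Mic-628 and 5081 to 5259 FPKM with vehicle. Of these markers, Fn1, Vim, Col1a2 and Col3a1 were called lower (log2 fold changes -0.28, -0.22, -0.14 and -0.57; edgeR adjusted p 1.7e-05, 5.4e-05, 0.0071 and 8.6e-07). S100a4 had 610.0 FPKM with Mic-628 and 653.6 FPKM with vehicle and was not called (edgeR adjusted p = 0.37). Col1a1, Pdgfra, Pdgfrb and Thy1 were not called either and hardly differed (log2 fold changes -0.0044, 0.031, 0.0099 and 0.0031). Lum, under 1 FPKM, was not called (-0.51, edgeR adjusted p = 0.14). The lower sum therefore does not describe every fibroblast marker. The 4 macrophage and blood markers summed to 8.81 to 9.58 FPKM with Mic-628 and 7.99 to 8.62 FPKM with vehicle. Most of this was Cd68, with means of 7.42 FPKM with Mic-628 and 6.59 FPKM with vehicle. Csf1r had means of 1.81 FPKM with Mic-628 and 1.56 FPKM with vehicle. Neither was called (edgeR adjusted p 0.26 for Cd68 and 0.15 for Csf1r). Ptprc averaged under 1 FPKM, and Adgre1 was at 0 in all 8 libraries. Of the 3 glia and neuron markers only Tubb3 was above 1 FPKM, and they summed to 3.12 to 3.89 FPKM with Mic-628 and 3.73 to 4.05 FPKM with vehicle. Their part in the results above was not tested.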

How the data were processed

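Poly(A) RNA of NIH3T3 cells was sequenced in 8 libraries; per the labels' protocols, Trizol extraction, a stranded kit and paired-end reads were used. The submitters' processing notes name STAR 2.7.10a, HOMER 4.11 and bcl2fastq and the build GRCm39 (mm39), without roles. The authors deposited estimated counts per canonical transcript in steps of 0.5, not normalized, and FPKM values of the same rows, scaled by the header totals (recomputed values differed by at most 5e-04). No column was left unmatched to a sample.

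Rounded counts were fitted with edgeR 4.0.16 (R 4.3.3): filterByExpr (minimum count 10), TMM, quasi-likelihood F test without a block, Benjamini-Hochberg adjustment over 17128 rows, called at 0.05. The standard error is the log2 fold change divided by the square root of F. Gene ratios were compared by exact permutation. Alternatives used DESeq2 1.42.0, limma 3.58.1, other scalings and filters, log2(FPKM + 1) and log2(FPKM + 0.1), and left-out libraries. The fit was also run on simulated data, but the outcome is not given here and is not used as support for the calls. Figures used matplotlib 3.10.9.

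The members and lists were chosen with earlier results of these data known. The text names all 10 members and, per list, at most 4 called genes in each direction by p, or the smallest p where none was called; Gsto1 was added after its values were seen. The gene symbol Akr1b3 had no row; for a repeated symbol the row with the highest mean count was used. In the labels, 1 Mic-628 and 1 vehicle library share each batch number (1 to 4), so the numbers pair the libraries. Over 10450 genes, deviations of same-numbered libraries correlated at -0.088, 0.078, -0.016 and -0.094. Replicates differed by more than counting noise (chi-square per gene 1.66 to 5.33), so none was counted as a duplicate. Sequences came from RefSeq on GRCm38.p6, and no coordinates were converted.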

Additional observations from a re-analysis of the deposited data

How the results depend on the processing

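With the batch number as a replicate block, edgeR called 624 genes and 5 genes of the lists, against 749 and 5 without it, and Gclc stayed called; DESeq2 with the replicate block called 243 and 1, with Gclc at 0.18 (adjusted p = 0.0706). Sign-flip tests within pairs gave an adjusted exact p of 0.25 for both ratios, where 4 pairs cannot go below 0.125. Limma-trend called 277 genes and 2 list genes on log2(FPKM + 1), with Gclc at 0.17, 273 and 2 on log2(FPKM + 0.1), with Gclc at 0.18, and 170 and 1 on log2(FPKM + 1) over all rows, with Gclc at 0.17 (adjusted p = 0.15). List genes called numbered 9 without the low-count filter and 3 at a CPM of at least 1 in 4 libraries; fewer or more rows entered these fits. Upper-quartile scaling turned Slc7a11 to -0.0032. Leaving out 1 library or both of a batch gave 292 (without batch 3) to 802 called genes, with 438 without Mic-628 replicate 3, 426 without vehicle replicate 2 and 331 without batch 2. It gave 2 to 9 list genes, namely 3 without Mic-628 replicate 3, vehicle replicate 2 or 3 or batch 2, 2 without batch 3 and 9 without batch 1. The log2 fold change of Gclc was then 0.16 to 0.22, of Nfe2l2 -0.013 to 0.028, of Slc7a11 -0.036 to 0.031, of Gclm -0.069 to 0.017, of Srxn1 -0.039 to 0.039 and of Gsr -0.049 to 0.0070. The Gclc to Gclm ratio difference ran from 0.17 to 0.23 and the Nfe2l2 to Keap1 difference from 0.11 to 0.16. Without vehicle replicate 3 both passed (exact permutation p adjusted over both = 0.0286). That is the smallest p that 4 libraries against 3 can give, and vehicle replicate 3 was the library at which the Nfe2l2 to Keap1 groups met. The cause of these shifts was not tested. Keap1, Hmox1, Txnrd1 and G6pdx kept their sign and were not called under any of the 22 alternatives run, with log2 fold changes of -0.16 to -0.083, -0.092 to -0.016 (without Mic-628 replicate 1), -0.076 to -0.014 (without vehicle replicate 4) and -0.0499 to -0.0095 (without batch 4). Every member had at least 679 counts in each library, whereas Txnip and Aldh3a1 had at most 24, so depth limits these 2 most.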
